A study of Xiphophorus maculatus x Xiphophorus hellerii with 32 samples.

Results

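Among the transcripts measured in hybrid platyfish and swordtail fish, 100 varied far more from one melanoma to the next than from one skin to the next. They were selected on measured values in the same libraries. Of 20469 rows with an ENSXMAT transcript identifier, 8697 reached a mean of at least 10 CPM (counts scaled to a common library total, here the column sum) in both tumors and skins. For each of these the standard deviation (SD) of log2(CPM + 1) over the skins was subtracted from that over the tumors, and the 100 largest differences were taken. All 100 members passed the level filter by construction. None of the members has a gene symbol: 30 of the 20499 rows in the table carry one, and 0 of these are members. The members are therefore described by identifier, with no name or function.

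The study sequenced RNA from spontaneous melanomas and from skin of 9-month-old fish, all of them first-generation backcross (BC1) offspring of Xiphophorus maculatus and Xiphophorus hellerii hybrids, and all bearing melanoma. There were 16 tumor libraries and 16 skin libraries, and 14 fish gave both tissues. The skin is therefore skin of melanoma-bearing hybrids, not of tumor-free fish or of a parental species. A fish is titled with a number plus a letter, such as 11949f. The libraries matched to a title share 4 of these title numbers, and no source used here says what they mark. Number 11935 has 3 tumors and 3 skins, 11949 has 8 and 8, 11960 has 1 titled tumor and 2 skins, and 11963 has 3 and 3. The remaining tumor column matches no tumor title and is called the untitled tumor. Its name abbreviates 11960b, a fish with a titled skin, whereas the only tumor title without a column reads 11969b. No source used here says which of these it is, and its likeness to the skin of 11960b was not tested.

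In the Gordon-Kosswig cross, melanoma develops in backcross hybrids that inherit the oncogene Xmrk, a mutated copy of an epidermal growth factor receptor gene, from X. maculatus without the X. maculatus locus that restrains it. Xmrk signals without its ligand in pigment cells and drives them to proliferate. Both tissues here were sequenced in bulk, so that fewer cells of a type and less RNA per cell cannot be told apart in any level below.

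Total counts were 2578877 to 6977222 in tumors and 4239036 to 6673975 in skins. The tumor of 11949f was the shallowest library. Xmrk stood between 139 and 1343 CPM in tumors (median 573) and between 19.0 and 119 CPM in skins (median 63.4), so that the tissues did not overlap for the driver gene. Marker lists for pigment cells, muscle, keratinocytes, blood and immune cells matched 0 members and could not be read from the 30 symbols in the table.

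The values that chose the members are given as a description. The SD of log2(CPM + 1) lay between 2.20 and 4.73 in tumors (median 3.32) and between 0.448 and 1.87 in skins (median 0.880). Over all 8697 rows the median SD was 0.667 in tumors and 0.665 in skins, so the members also varied more in skin than the median row. Among large differences, a wider spread in tumors was the more frequent direction: 170 rows differed by at least 1 log2 unit of SD towards tumors, against 2 towards skins. At 0.5 units the numbers were 312 and 38, and at 1.5 units 106 and 0. The rows counted towards tumors include all 100 members at each limit, so these counts are no separate result. The limit of 100 cut a continuous run of values. ENSXMAT00000011346, ENSXMAT00000008289 and ENSXMAT00000014240, the last inside, differed by 1.62, 1.62 and 1.60, whereas ENSXMAT00000002597, ENSXMAT00000004983 and ENSXMAT00000003641, the first outside, differed by 1.60, 1.58 and 1.55.

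**Figure D1:**
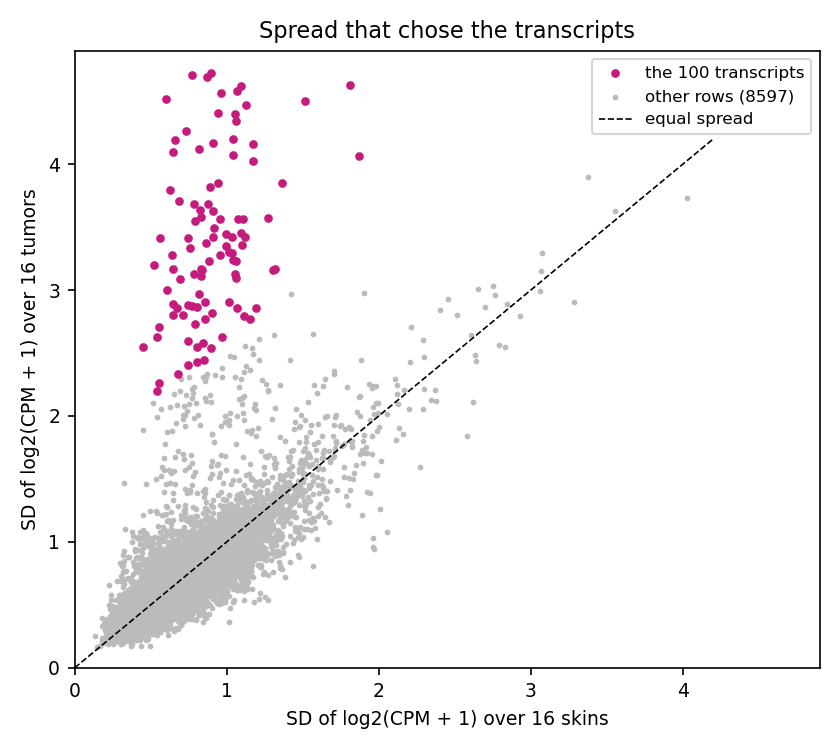
SD of log2(CPM + 1) over 16 tumors (vertical axis) against SD over 16 skins (horizontal axis) for 8697 rows, with the 100 members in magenta, the other 8597 rows in grey and a dashed line where both are equal. The members lie between 2.20 and 4.73 in tumors, well above the line, and at 0.448 to 1.87 in skins.

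The members were not rare transcripts, but the rule that chose them favours abundant rows. The level filter removed rare rows. With the pseudocount, a row at a low level in every tumor cannot reach a wide spread on the log scale. The levels and the tumor spans given here thus partly follow from the choice and are a description. Their mean level ran from 17.3 to 5714 CPM in tumors (median 198) and from 15.6 to 6260 CPM in skins (median 348), beside medians of 35.9 CPM in tumors and 31.5 CPM in skins over all 8697 rows. Between the highest and the lowest tumor a member spanned 6.06 to 13.4 log2 units (median 8.99). Between the highest and the lowest skin it spanned 1.58 to 6.09 log2 units (median 3.03).

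The member with the largest SD difference was ENSXMAT00000018595. It had 0.974 CPM in the lowest tumor, a median of 4065 CPM and 21593 CPM in the highest tumor, against 2202, 4234 and 13610 CPM in skins. Its SD difference was 3.93 log2 units. In 6 tumors it fell below every skin, while the medians of the tissues were close. These tumors held 611 CPM (11949a), 93.1 CPM (11949b), 20.02 CPM (11960a), 5.84 CPM (the untitled tumor), 2.63 CPM (11949c) and 0.974 CPM (11963a). The last of these rests on 5 counted reads.

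ENSXMAT00000018506, second in rank, had 0.405, 1573 and 7751 CPM as lowest, median and highest tumor, against 1233, 1964 and 3954 CPM in skins. ENSXMAT00000008025 had 0.810, 3176 and 15350 CPM in tumors, against 1092, 3215 and 6805 CPM in skins. In both, 11949c was the lowest tumor and 11949l the highest. ENSXMAT00000012624 had 2.14, 3286 and 20847 CPM in tumors, against 1814, 5364 and 11744 CPM in skins. ENSXMAT00000013717 had 0.195, 1445 and 6729 CPM in tumors, against 470, 1543 and 4024 CPM in skins. For all 5 transcripts the tumors reached both below the lowest skin and above the highest skin.

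The next 5 members by rank included both patterns at the upper end. ENSXMAT00000007440 reached 2588 CPM in the highest tumor, against 2891 CPM in the highest skin, and its lowest values were 0.195 CPM in tumors and 780 CPM in skins. ENSXMAT00000011486 ran from 1.82 to 7682 CPM over tumors and from 1189 to 10706 CPM over skins. These 2 stayed under the highest skin in every tumor. ENSXMAT00000004199 ran from 2.73 to 20209 CPM over tumors and from 784 to 9357 CPM over skins. ENSXMAT00000016636 ran from 0.531 to 7353 CPM over tumors and from 207 to 2955 CPM over skins. ENSXMAT00000007472 ran from 0.607 to 4667 CPM over tumors and from 420 to 4051 CPM over skins. In ENSXMAT00000004199, ENSXMAT00000016636 and ENSXMAT00000007472 the highest tumor exceeded the highest skin.

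Across the whole set, the lowest tumor lay below the lowest skin for 100 of 100 members, and the highest tumor lay above the highest skin for 68. Over all 8697 rows the shares were 38.2% and 62.999%. The choice of rows with a wide spread in tumors bears on both counts, and nothing is read from them. A count of 0 occurred in at least 1 tumor for 46 members and in no skin for any. The lowest count of a member in any skin library was 17 reads.

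The 100 members moved as 1 unit over the tumors. In an average-linkage tree on 1 minus Pearson's r of log2(CPM + 1), all members joined at a height of 0.0965, so cutting the tree at 0.4, 0.5 or 0.6 left 1 block. Pairs of members correlated over the 16 tumors with r from 0.805 upwards (median 0.967), beside a median of 0.0849 over all pairs of the 8697 rows. Over the 16 skins the same pairs had a median r of 0.498 and ran from -0.615 to 0.995, beside a median of 0.0781 for all pairs. The first principal component of the members carried 96.4% of their variance over tumors and 51.6% over skins, beside 37.0% and 19.8% for all 8697 rows. These correlations share libraries and depth and are given as descriptions. A set of rows with large swings over the same few tumors correlates more readily than other rows, so the r values in tumors partly follow from the choice.

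**Figure D2:**
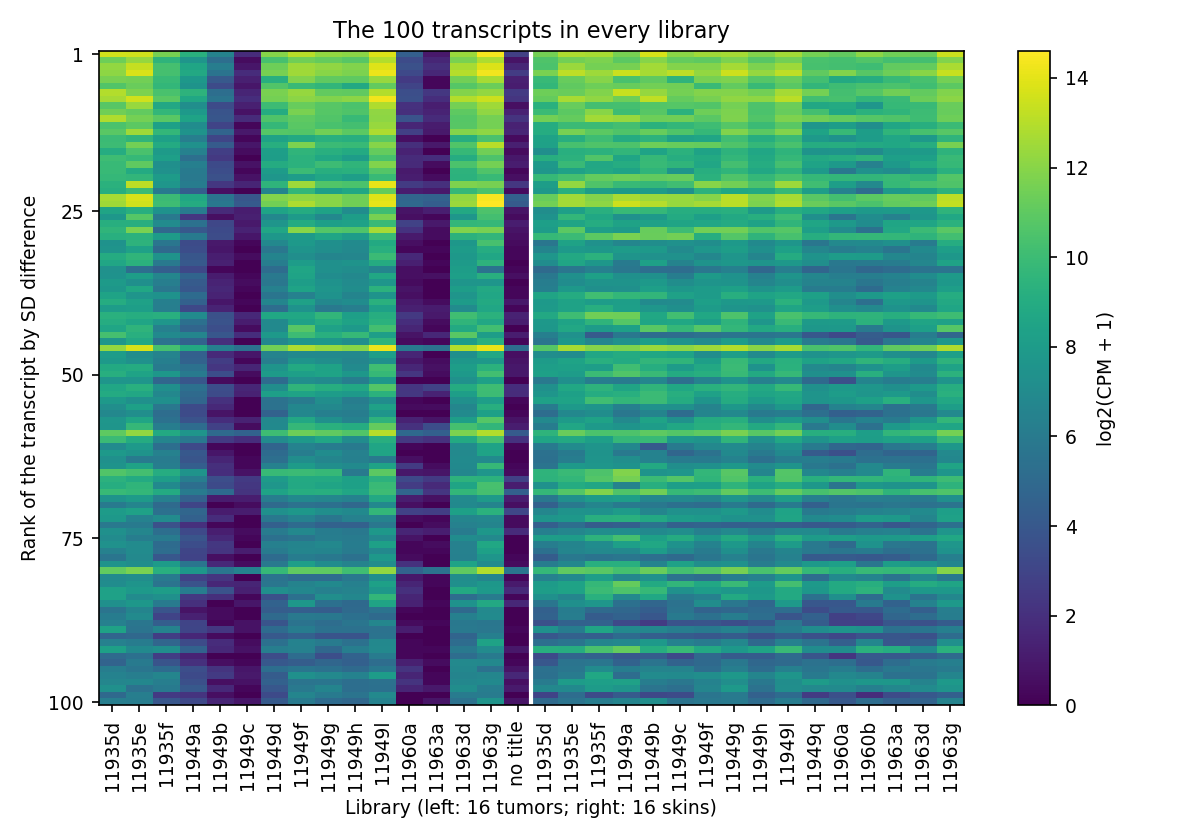
Level of each of the 100 members, as log2(CPM + 1) on the colour scale, in 16 tumors (left of the white line) and 16 skins (right), with members ordered from rank 1 at the top to rank 100. The darker columns of 11949b, 11949c, 11960a, 11963a and the untitled tumor run through the whole set, while no skin column is darker throughout.

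The sum over the 100 members summarises each library. Tumors averaged 77214 ± 87661 summed CPM and skins 83303 ± 36790 summed CPM (SD, n = 16 each). The medians were 53131 CPM in tumors and 84538 CPM in skins. The means were thus close and the spread was not, which is what the choice of members sets.

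Which tumors stood apart can be read from the individual sums. The lowest was 11963a with 244 CPM. It was followed by 11949c with 262 CPM, the untitled tumor with 267 CPM and 11960a with 443 CPM. The tumor of 11949b stood at 1045 CPM and that of 11949a at 8513 CPM. These 6 tumors were all below the lowest skin, which had 37681 CPM. In each of the 4 lowest, 100 of 100 members were below every skin, with 99 in 11949b and 92 in 11949a. Of all 8697 rows, 6.29% (11949a) to 11.8% (11949c) were below every skin in these 6 tumors. The members were chosen on these values, so the counts are a description.

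The tumor of 11935f, at 29663 CPM, was also below every skin in its sum. It had 34 members below all skins and 0 above, beside 5.62% and 15.9% of all rows. Another 4 tumors lay inside the skin range: 11949d with 47882 CPM, 11949h with 58381 CPM, 11949g with 73140 CPM and 11949f with 107153 CPM. In these, 14 to 24 members were below all skins, beside 3.77% to 7.60% of all rows. Above all skins were 1 to 11 members, beside 12.1% to 17.2% of all rows. The tumors of 11963d, with 109740 CPM, and 11935d, with 110011 CPM, were inside the skin range too. They had 18 and 11 members above all skins, beside 12.2% and 9.20% of all rows.

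The highest skin, which had 131657 CPM, was exceeded by 3 tumors. They were 11935e with 172525 CPM, 11963g with 252755 CPM and 11949l with 263396 CPM. Members above all skins numbered 37 in 11935e, 57 in 11963g and 55 in 11949l, beside 6.39%, 7.05% and 4.27% of all rows. The highest tumor value of a member fell in 11963g for 40 members, in 11949l for 39, in 11963d for 10, in 11935d for 8 and in 11949f for 3. Of all rows, 3.89%, 1.41%, 4.45%, 6.60% and 4.52% had their highest tumor there. The lowest tumor value fell in 11949c for 44 members, in 11963a for 32, in the untitled tumor for 16, and in 11949b and 11960a for 4 each. Of all rows, 9.72%, 3.92%, 4.62%, 2.54% and 5.00% had their lowest tumor there. Tumors tied at 0 reads were counted under the first in column order, in which 11949c precedes the untitled tumor and 11963a. The order of these tumors by number of lowest values is therefore not read. The members were chosen on these values, so these counts are a description.

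**Figure D3:**
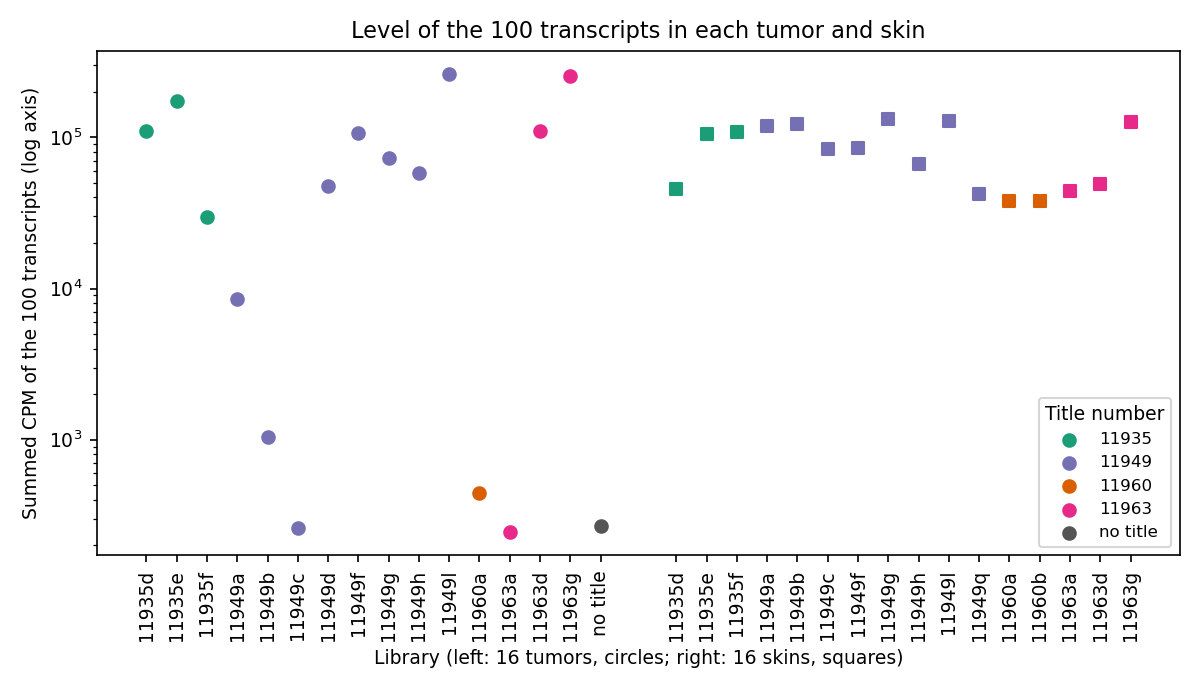
Summed CPM of the 100 members (log axis) in each of 16 tumors (circles, left) and 16 skins (squares, right), coloured by title number. Skins sit between 37681 and 131657 CPM, whereas tumors run from 244 to 263396 CPM, with both extremes holding fish of 11949 and 11963.

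The shallowest tumor was not among the low ones. It was that of 11949f, which had 0 members at 0 reads and a sum inside the skin range. Members at 0 reads numbered 30 in 11963a, 24 in 11949c, 17 in the untitled tumor, 8 in 11960a and 3 in 11949b. In the other 11 tumors and in all skins the number was 0. The 95% Wilson interval of the summed level was widest in 11963a, at 5.54% of the value to either side, and covers counting error alone.

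Set against the median tumor, 100 of 100 members lay at least 2 log2 units lower in each of 11949b, 11949c, 11960a, 11963a and the untitled tumor, and 74 did in 11949a. Of all 8697 rows, the share that low was 4.62% in 11949c, 3.46% in 11963a, 3.33% in 11960a, 3.32% in the untitled tumor, 2.84% in 11949b and 1.92% in 11949a. At least 2 units above the median tumor were 60 members in 11963g and 51 in 11949l, beside 2.07% and 1.49% of all rows. Numbers were lower in 11935e, with 21 members, and in 11935d, with 12, beside 1.59% and 1.44% of all rows. The low tumors were not low in most of the rows.

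The order of abundance among the members remained partly visible in the low tumors. Over the 100 members, log2 levels in a tumor correlated with the mean log2 level in skins at r between 0.564 (11949c) and 0.911 (11935f). Each skin correlated with that mean at 0.889 to 0.967. That mean includes the skin itself and no tumor, so the ranges of the tissues cannot be compared directly. These values are across members of 1 library and members are not independent.

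The 14 fish with both tissues allowed each tumor to be set beside the skin of the same fish. In 5 tumors the summed level was more than 10 times below that of the fish's own skin. The tumor was 320-fold lower in 11949c, with 262 CPM in tumor and 83980 CPM in skin. It was 181-fold lower in 11963a, with 244 CPM in tumor and 44071 CPM in skin. The remaining 3 were 11949b (117-fold lower), 11960a (85.1-fold lower) and 11949a (13.9-fold lower). All 100 members were lower in the tumor than in the same fish's skin in 11949b, 11949c, 11960a and 11963a, and 99 were in 11949a. The members were chosen on these tumor values, and the share of all rows lower or higher in each tumor was not computed. These counts, and those for the other fish below, are thus a description.

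The tumor of 11935f was 3.64-fold lower than its skin, with 29663 and 107923 CPM, and 99 members were lower in it. In 11949g the tumor had 73140 CPM and the skin 131657 CPM, a ratio of 0.556, with 93 members lower. The tissues were close in 11949h, with a ratio of 0.875, and in 11949f, with a ratio of 1.26.

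In another 5 fish the tumor held more than its own skin. The ratio of tumor to skin was 2.41 in 11935d, 2.23 in 11963d, 2.05 in 11949l, 2.00 in 11963g and 1.64 in 11935e. Members higher in the tumor numbered 91 in 11935d, 88 in 11963d, 80 in 11963g, and 78 in each of 11935e and 11949l. The median of tumor minus skin over all 8697 rows was between -0.12 and 0.72 log2 units in the 14 fish, the highest being 11949a, and the members' own medians ran from -7.30 (11949c) to 1.32 (11935d). The shift over all rows was not small beside the members' median in 11949g, at 0.50 against -0.81, in 11949f, at 0.14 against 0.31, and in 11949h, at 0.051 against -0.15. Low tumors were found beside skins from most of the skin range: those of 11949a, 11949b and 11949c had skins of 118519, 121792 and 83980 CPM, and that of 11960a had the lowest skin, at 37681 CPM.

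**Figure D4:**
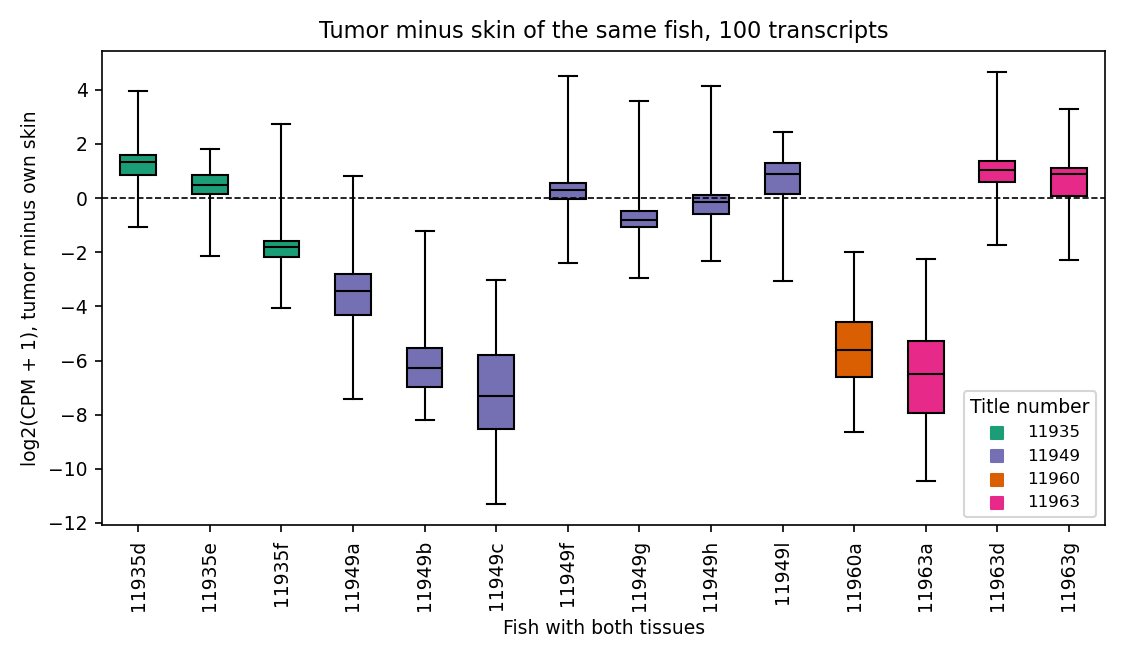
Tumor minus skin of the same fish in log2(CPM + 1) for the 100 members, 1 box per fish with both tissues (line, median; box, quartiles; whiskers, lowest and highest member), coloured by title number. Medians run from -7.30 in 11949c to 1.32 in 11935d, and fish of 11935, 11949 and 11963 lie on both sides of the dashed line at 0.

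When the member's mean and the library's mean were both removed, what remained still matched tumor to fish. Across the 100 members these residuals correlated between a tumor and the skin of the same fish with r from -0.093 to 0.804 (median 0.692), and between a tumor and the skin of another fish with r from -0.542 to 0.520 (median -0.031, 182 pairs). For 12 of the 14 fish the best match was their own skin. The lowest values were in the low tumors: -0.093 in 11949c, 0.206 in 11963a, 0.338 in 11949b and 0.461 in 11960a, tumors in which 3 to 30 members had no read. What part those low counts played was not tested. The next was 0.642 in 11949a. These residuals were not computed over all rows, so the match is not read as a trait of the members. In the check of the pairing, deviations from the tissue mean also correlated within a fish (median r 0.680). There, 14 of 14 tumors were closest to their own skin. For the level itself, r between a fish's tumor and its skin had a median of 0.347 over the members (-0.366 to 0.820), beside a median of 0.716 over all rows. The rule chose a wide spread of these values in tumors and a narrower one in skins. The choice thus bears on this r, and nothing is read from the gap. ENSXMAT00000002422, whose values were seen before it was chosen here, had 2.75 CPM in the tumor and 182 CPM in the skin of 11949b, and 1934 and 1651 CPM in those of 11949l.

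The mean difference between tumor and skin was tested, because the rule ranked on spread and not on the mean. The rule still chose a large spread among these tumors, which enlarges the variance that the test compares against. A low number of calls is therefore not read as a result about the members. With edgeR's quasi-likelihood test on all 32 libraries, 1 of 100 members was called higher in tumor at a Benjamini-Hochberg adjusted p under 0.05, beside 11.2% of the 14542 rows tested. Called lower were 14 members, beside 12.3% of rows, so the members' share was near the background in this direction. The median fitted log2 fold change of the members was -0.22. When the fish was added as a replicate block (28 paired libraries), 0 members were called higher (background 23.3% of 14591 rows) and 21 lower (background 22.9%), and the median was -1.57. DESeq2 on all 32 libraries called 1 higher and 16 lower, beside 12.0% and 14.1% of rows. Within title number 11949 alone, with 8 tumors and 8 skins, edgeR called 1 higher (background 5.93% of 14313 rows) and 12 lower (background 6.8%), with a median of -0.71.

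A different average gave a different picture. By the mean of log2(CPM + 1), 99 of 100 members were lower in tumors than in skins, with a median difference of -2.16 (-4.27 to 1.47), beside 0.18 over all 8697 rows. The rule chose a wide spread of these same log2 values over tumors. The choice thus bears on this count, and nothing is read from it. By mean CPM, 61 were lower and 39 higher, with a median log2 ratio of -0.19. The mean of logs gives each tumor equal weight, whereas the mean CPM is dominated by the tumors with the most reads of a member.

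Among the members called lower, the 3 with the smallest p were as follows. ENSXMAT00000005457 had 0.180, 66.4 and 312 CPM as lowest, median and highest tumor, against 120, 547 and 2239 CPM in skins. Its log2 fold change was -3.33 ± 0.71 (SE), with an edgeR adjusted p of 5.50e-04. The tissues overlapped, with 4 tumors above the lowest skin.

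ENSXMAT00000015022 had 0, 57.9 and 137 CPM in tumors, against 212, 295 and 1244 CPM in skins. The tissues did not overlap, and 2 tumors were at 0. Its log2 fold change was -3.06 ± 0.67 (SE), with an edgeR adjusted p of 7.54e-04. ENSXMAT00000018539 had 0.195, 66.4 and 312 CPM in tumors, against 237, 464 and 2261 CPM in skins. Its log2 fold change was -2.98 ± 0.69 (SE), with an edgeR adjusted p of 0.00124. Of the tumors, that of 11949l alone was above the lowest skin.

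The member called higher was ENSXMAT00000018061. It had 0.722, 256 and 1855 CPM as lowest, median and highest tumor, against 8.39, 40.4 and 167 CPM in skins. In the 5 tumors with the lowest summed levels it was at 14.6 CPM or less, which lies within the lower skin range or under it, and in 11949a it was at 99.9 CPM. The log2 fold change was 3.08 ± 0.74 (SE), with an edgeR adjusted p of 0.00191. With the fish as a block it was 1.83 with an edgeR adjusted p of 0.0782, so the call was lost.

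Title numbers were compared next, among the tumors and among the skins. The tumor sums averaged 104067 ± 71616 CPM for 11935 (SD, n = 3), 69972 ± 86862 CPM for 11949 (SD, n = 8) and 120913 ± 126626 CPM for 11963 (SD, n = 3). For 11949 and 11963 the SD exceeded the mean, and both numbers held tumors near both ends of the range. The 1 titled tumor of 11960 was among the 4 lowest, as was the untitled tumor, whose name abbreviates a fish of 11960. With 1 titled tumor, that number was not tested among tumors. The skin sums were 45630, 105235 and 107923 CPM for 11935. They were 41901 to 131657 CPM for 11949. For 11963 they were 44071, 49261 and 126679 CPM, and for 11960 they were 37681 and 38171 CPM, the lowest of the 16 skins.

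In the 14 tumors of 11935, 11949 and 11963, edgeR called 0 of 100 members in the joint test, beside 0.00636% of the 15724 rows. It called 0 members for 11935 minus 11949, beside 0% of rows, and 0 for 11963 minus 11949, beside 0.00636%. At an unadjusted p under 0.05 the counts were 0, 0 and 0 members, beside 8.17%, 7.21% and 7.12% of rows. DESeq2 called 0 members in each of the 3, beside 0.572%, 0.458% and 0.293% of rows. The members were picked for a large spread among tumors, which enlarges the variance that these tests compare against. The members' median log2 fold change was 0.52 for 11935 minus 11949 and 0.94 for 11963 minus 11949. Without the tumor of 11963g the second value was -0.41, and without that of 11963a it was 1.53. Without the tumor of 11935e the first was 0.098, and without that of 11935f it was 0.92.

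Among the 14 skins of the same numbers, edgeR called 0 members in the joint test, beside 0% of 15577 rows, and 0 in each of the pairwise comparisons, beside 0% and 0%. At an unadjusted p under 0.05 there were 1, 2 and 0 members in the joint test, 11935 minus 11949 and 11963 minus 11949, beside 5.91%, 3.54% and 7.41% of rows. DESeq2 called 0 members in each, beside 0.327%, 0.0321% and 0.456% of rows. The members' median log2 fold change was -0.28 for 11935 and -0.45 for 11963, each minus 11949, and without the skin of 11963g the second was -1.18. Without the skin of 11935d the first was 0.056, and without that of 11935e or 11935f it was -0.51 or -0.55. A p that misses the threshold does not show that the title numbers are alike. The tumor sums spanned 29663 to 172525 CPM within 11935, 262 to 263396 CPM within 11949 and 244 to 252755 CPM within 11963.

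The 2 skins of 11960 were set against the 8 skins of 11949, a comparison chosen after these values were seen. With edgeR, 0 of 100 members were called at an adjusted p under 0.05, beside 0.0447% of 15644 rows, and 50 members had an unadjusted p under 0.05, beside 6.25% of rows. DESeq2 called 16 members, all lower in 11960, beside 0.435% of rows. The members' median log2 fold change was -1.44, beside -0.097 over all rows, and 3 of 100 were higher in 11960. Leaving out either skin of 11960 gave medians of -1.26 and -1.74 and 0 members called by edgeR, with the remaining skin taken to vary like those of 11949. The call thus depended on the tool, and 2 fish stand behind it. The rule also used the spread over these same skins. The members moved together over skins (median pairwise r 0.498, beside 0.0781 for all pairs), so the counts of members are not separate results.

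The level of the driver gene was set beside the members. In the 5 tumors with the lowest sums Xmrk stood at 431 CPM (11963a), 396 CPM (11949c), 483 CPM (the untitled tumor), 645 CPM (11960a) and 809 CPM (11949b). In the 3 with the highest sums it stood at 424 CPM (11949l), 534 CPM (11963g) and 192 CPM (11935e). The ranges overlapped. The tumors with the lowest Xmrk, 11935d with 139 CPM and 11935e, held sums of 110011 and 172525 CPM, and the tumor with the highest, 11949h with 1343 CPM, held 58381 CPM.

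With edgeR's quasi-likelihood test for a slope on log2 CPM of Xmrk over the 16 tumors, 0 members were called, beside 0.379% of the 15824 rows. At an unadjusted p under 0.05 the count was 0, beside 9.22% of rows, and DESeq2 called 0 members, beside 2.58% of rows. The members were picked for a large spread among these same tumors, which enlarges the variance that the test compares against. They also moved together over the tumors, so the members are not independent. These counts therefore do not show that the members' level is unrelated to Xmrk. The median slope of the members was -0.18 log2 units per log2 unit of Xmrk. It was 0.00019 without the tumor of 11935e, -0.095 without that of 11935d, -0.38 without that of 11963g and -0.49 with the title number as a covariate. Leaving out the tumor of 11935e thus removed the negative sign, which stayed when any other single tumor was left out. The count of members called stayed at 0 when each tumor was left out in turn and when the title number was a covariate.

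**Figure D5:**
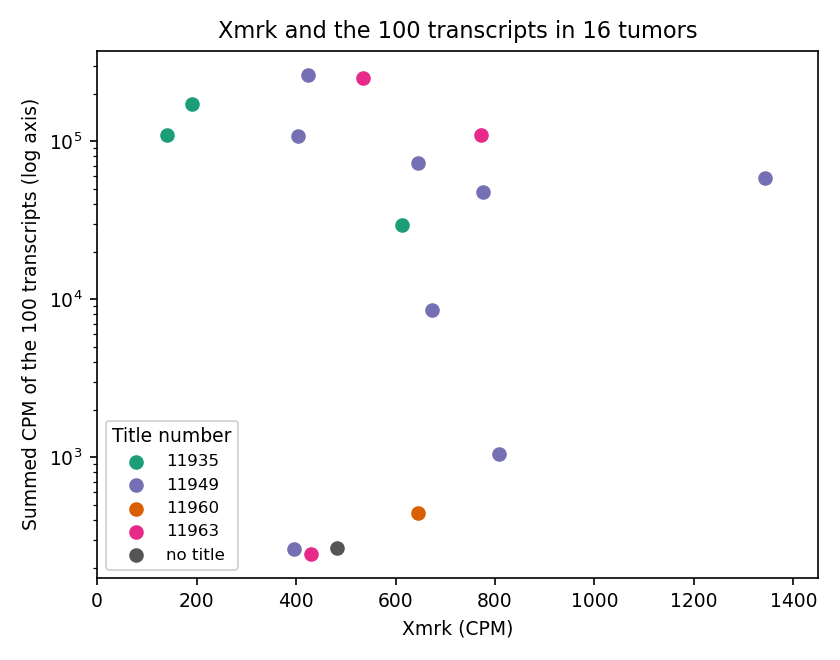
Summed CPM of the 100 members (log axis) against Xmrk in CPM for 16 tumors, coloured by title number. Tumors with sums of 1045 CPM or less have 396 to 809 CPM of Xmrk, and tumors with sums of 107153 CPM or more have 139 to 772 CPM, so the ranges overlap.

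The pattern did not end at the limit of 100. The profile was taken as the mean over the members of log2(CPM + 1), each member as its deviation from its own median over the tumors. Pearson's r with that profile was computed over the 16 tumors for every row, as a description. Members had r from 0.914 (ENSXMAT00000009774) to 0.996. Among the 8597 other rows at the level filter, 94 had r of at least 0.9 and 187 of at least 0.8. Of the 100 rows that follow the members in rank, 77 had r of at least 0.9 and 89 of at least 0.8, and of the next 300, 15 and 52 did. A further 54 rows of at least 0.9 were among the 7113 rows that missed the level filter but averaged at least 1 CPM in tumors.

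Rows with the opposite profile also occurred: 194 of the 8597 had r of -0.8 or below. With TMM-scaled levels, which allow for a few abundant transcripts taking a changing share of a library, 79 did, while 239 had r of at least 0.8. The number of opposite rows thus depended on the scaling of the rows, while the profile itself stayed on column sums. Of the 22 rows with a symbol and a mean of at least 1 CPM in tumors, CHD4_2of2, a copy of a gene for a nucleosome-remodelling helicase, had the highest r at 0.80 (0.84 with TMM). FGFR4, a fibroblast growth factor receptor, had 0.68 (0.76 with TMM). The lowest was CSNK1A1, the gene for casein kinase 1 alpha, at -0.84 (-0.77 with TMM). AP1M1 was next at -0.74 (-0.72 with TMM), followed by LDHB_1of2, a copy of a lactate dehydrogenase gene, at -0.72 (-0.59 with TMM). Xmrk itself had -0.15 (-0.044 with TMM).

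The files pair no member with a position, so only the order of identifiers could be looked at. Of the members sorted by identifier, 2 neighbouring pairs had identifiers 1 apart and 10 had identifiers up to 5 apart. Over the 8697 rows, the number 1 apart was 3789. A larger set holds closer identifiers, so these numbers cannot be compared directly and nothing is read from them. Whether members are copies of one another, and whether reads were divided between copies, is given by no source used here.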

How the data were processed

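The authors deposited 1 table of raw counts per transcript row for 32 libraries. The submitters' processing notes name GSNAP, a read aligner, with no version. The genome build, counting method and strand setting were not given in the sources used here. Identifiers are given without the prefix XM_. Columns were matched to titles. The 1 tumor column that matched none was kept as a tumor without a fish and left out of paired and title-number fits. Total counts were 2578877 to 6977222 per library, and 0 libraries were identical.

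The members and the lists were chosen with earlier results of these data known. Descriptions used CPM on column sums with a pseudocount of 1. Tests ran in R 4.3.3 with edgeR 4.0.16 (quasi-likelihood, raw counts), with TMM scaling, Benjamini-Hochberg adjustment over all rows tested and a threshold of 0.05. The low-count filter (filterByExpr) went by the groups compared, and by the design for the Xmrk slope (log2 CPM, prior count 2). DESeq2 1.42.0 was an alternative. The scripts were tested on simulated data in which the spread between libraries was capped, so rows of wider spread were not covered.

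Same-fish libraries are paired by the titles. Deviations from the tissue mean correlated within a fish at r of 0.428 to 0.841 (median 0.680) and between fish at -0.371 to 0.361, with 14 of 14 tumors closest to their own skin. Named were the 10 largest SD differences, the 3 smallest p in each direction among called members, the rows next to the limit, and Xmrk. Symbols and individual tumors named beyond these, and ENSXMAT00000002422 and ENSXMAT00000009774, were chosen after their values were seen. No mature sequence, promoter or protein was used here. Figures were drawn with matplotlib 3.10.9.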

Additional observations from a re-analysis of the deposited data

Results flagged for a closer look

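In the groups of 8 libraries of title number 11949, 40 sets of 8 values were searched for a library far from the rest (Dixon's ratio). Values found apart numbered 13, with several of them from the same library. Chance would give about 2 if the sets were independent and their rows unselected. Most sets are of members, which the rule chose on the spread over these same libraries. The sets also share libraries and are not independent, so nothing is read from the number found. Of 51 comparisons of direction between title numbers, 0 were opposite in every fish. Such a finding needs all fish of each number to go the same way. By the members' medians, 11935, 11949 and 11963 each held fish with the tumor above and below its skin. The count of 0 thus follows largely from the choice of members, and nothing is read from it.

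The tumor of 11949l stood above the other 7 tumors of its number. Its summed level of the members was 263396 CPM, with the next at 107153 CPM. The same tumor was apart for ENSXMAT00000018506 (7751 CPM, next 2779), ENSXMAT00000008025 (15350 CPM, next 5669) and ENSXMAT00000012624 (18454 CPM, next 5955). It was also apart for ENSXMAT00000004199 (20209 CPM, next 4372), ENSXMAT00000016636 (7353 CPM, next 2334) and ENSXMAT00000018539 (312 CPM, next 122). The gap test is on the linear scale, on which the tumors near 0 lie close together.

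The tumor of 11949h had 1343 CPM of Xmrk, with the next at 809 CPM. The tumor of 11949f had a total of 2578877 counts, with the next lowest at 4938279.

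Among skins, 11949b had 13610 CPM of ENSXMAT00000018595, with the next at 6497 CPM. The skin of 11949a had 10706 CPM of ENSXMAT00000011486 (next 6422), 2239 CPM of ENSXMAT00000005457 (next 957) and 1244 CPM of ENSXMAT00000015022 (next 603). The tumors of these same fish were among the 6 with low levels of the members.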

How the results depend on the processing

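Membership depended little on scaling: of the 100, 99 were kept with TMM, 97 with a pseudocount of 0.5, 90 with 5, 98 and 84 with level minimums of 1 and 50 CPM, 97 in the 14 paired fish, 93 within 11949, and 97 to 100 with 1 tumor left out. With the median absolute deviation, which gives little weight to a few extreme tumors, 57 were kept. Tumors with at least 50 members 2 log2 units above the median tumor numbered 2, against 5 at 1 unit and 0 at 3 units. Those with as many below numbered 6, against 6 at 1 unit and 5 at 3 units. With the fish as a replicate block, members called higher in tumor numbered 0 and members called lower 21. ENSXMAT00000018061 then had a log2 fold change of 1.83 and was no longer called, and its adjusted p over all alternatives ran from 3.58e-05 to 0.0782 (edgeR and DESeq2). Omitting the tumor of 11949f or the untitled tumor left 1 member called higher and 14 lower. Both omissions were chosen after seeing the data, as was the correlation of TMM-scaled rows with the members' profile. The 3 members named as lower stayed called throughout, with adjusted p (edgeR and DESeq2) up to 0.0175. For 11963 minus 11949 in skins, leaving out 1 replicate gave members' medians of -1.18 to -0.17. For 11960 minus 11949 in skins, added after seeing the data, DESeq2 called 16 members where edgeR called 0. Counts of 0 beside 0 make up 83 of the values that kept their side and say nothing of stability. The causes of these changes were not tested. Precision was limited in the lowest tumors, where up to 30 members had no read.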
